A study of Mus musculus with 9 samples.

Results

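The 40 genes described here form a list of mouse imprinted genes, genes of which cells use mainly the copy inherited from 1 parent, together with Zfp57, a regulator that is not itself treated as imprinted here. They were taken by name, and comprise 17 genes usually expressed from the maternal copy, 20 from the paternal copy, and Grb10 and Gnas, whose expressed copy depends on tissue or transcript. The maternal and paternal classes need not hold in every tissue either, as for Ube3a, classed as maternal and described below as maternal in neurons. Parental expression was not measured in these cells. RNA came from J1 mouse embryonic stem (ES) cells, an established line of strain 129S4/SvJae derived from the inner cell mass, adapted to gelatin and kept with 1000 U/mL of LIF, a cytokine that holds ES cells in self-renewal. Cells of the 3 groups were treated for 24 h with the solvent DMSO, with 3 µM CHIR99021, which blocks the kinase GSK3 and so turns on Wnt/beta-catenin signalling, or with 1 mM AICAR, a nucleoside that activates the kinase AMPK, and each group had 3 single-colour Agilent arrays. The series asked which genes respond to either compound. It used 1 line throughout. Whether the 3 replicates of a group were grown as separate cultures is not stated in the labels, and the spread behind every p-value may therefore be technical only.

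Of the 40 genes, 38 had a probe matched by accession, with 63 probes in all. H19 was matched only by the name the file gives its 5 probes, and Rian had no matched probe, which left 39 genes tested among 26866 features. Levels are the log2 of the processed signal relative to the 75th percentile of the same array. They depend on the probe as well as on the RNA, so a level is compared only between samples and never between genes. Each gene was tested at its brightest probe, and the text gives the other probes where they differ. Kcnq1ot1 is an exception, tested and counted at its brightest probe matched by accession, although a probe named for it only in the file is brighter. The arrays measure RNA of both parental copies together, so an allele-specific change and a change of both copies cannot be told apart, nor can fewer cells using a gene and less RNA per cell.

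Imprinting rests on DNA methylation laid down in egg or sperm at short control regions and kept through the divisions of the early embryo and of ES cells. At most of these regions the zinc finger protein ZFP57 and its partner TRIM28 bind the methylated copy and maintain it, and DNMT1 with UHRF1 copies the marks at replication. Imprinted genes lie mostly in clusters that hold protein-coding genes expressed from 1 parental copy and long noncoding RNAs expressed from the other. Many of their products act on growth of the fetus and placenta, with paternally expressed genes tending to promote growth and maternally expressed ones to restrain it.

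RefSeq promoter windows, each 300 bases from 250 before to 50 after an annotated start on build GRCm38.p6, were listed for 33 of the 40 genes, in 51 windows. They were searched on both strands for TGCCGC, the hexamer that mouse ZFP57 binds when it is methylated. The hexamer was found in 13 of the 51 windows (25.5%), belonging to 12 genes, against 11.6% of all 32851 windows listed. The members' windows were also richer in the dinucleotide CG, with a median of 13 per window against 7 over all windows, and the hexamer itself holds a CG. It was present in 8 of 24 windows of paternally expressed genes and 4 of 18 of maternally expressed ones. The Mest windows that start at 30737800 and 30737803 overlap almost fully and hold the same matches, and both are counted. A match describes the letters of the window and does not show binding. The windows of 5 genes are printed because the results below turn on their RNAs, Plagl1 with the largest rise and the others with falls under both compounds. Dlk1 and Meg3 are the oppositely imprinted neighbours of 1 cluster. Capitals mark the hexamer, read as TGCCGC or, on the other strand, as GCGGCA. All 5 are on the plus strand.
Plagl1, chr10:13090582-13090881: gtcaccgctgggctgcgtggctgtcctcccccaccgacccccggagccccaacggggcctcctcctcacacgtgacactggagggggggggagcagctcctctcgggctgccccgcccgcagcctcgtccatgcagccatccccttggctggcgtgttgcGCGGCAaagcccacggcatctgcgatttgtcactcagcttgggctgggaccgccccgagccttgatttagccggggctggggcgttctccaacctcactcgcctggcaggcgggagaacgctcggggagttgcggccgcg
Mest, chr6:30737800-30738099: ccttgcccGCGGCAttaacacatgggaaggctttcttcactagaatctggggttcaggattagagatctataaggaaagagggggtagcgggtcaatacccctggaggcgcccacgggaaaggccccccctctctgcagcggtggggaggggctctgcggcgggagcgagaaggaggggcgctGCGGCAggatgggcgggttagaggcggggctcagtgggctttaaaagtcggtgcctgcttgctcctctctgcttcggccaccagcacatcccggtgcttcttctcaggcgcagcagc
Nnat, chr2:157559828-157560127: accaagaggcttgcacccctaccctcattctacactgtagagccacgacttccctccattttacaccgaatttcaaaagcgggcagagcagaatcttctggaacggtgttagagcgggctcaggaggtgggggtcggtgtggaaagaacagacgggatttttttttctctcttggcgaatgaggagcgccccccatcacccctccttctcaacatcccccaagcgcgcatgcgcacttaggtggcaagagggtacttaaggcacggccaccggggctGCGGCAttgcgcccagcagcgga
Dlk1, chr12:109452573-109452872: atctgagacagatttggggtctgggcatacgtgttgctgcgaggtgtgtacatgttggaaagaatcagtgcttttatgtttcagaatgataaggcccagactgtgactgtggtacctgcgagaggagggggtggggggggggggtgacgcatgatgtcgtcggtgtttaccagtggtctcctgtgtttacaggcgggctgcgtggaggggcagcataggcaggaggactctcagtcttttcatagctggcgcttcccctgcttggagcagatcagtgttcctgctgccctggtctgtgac
Meg3, chr12:109540746-109541045: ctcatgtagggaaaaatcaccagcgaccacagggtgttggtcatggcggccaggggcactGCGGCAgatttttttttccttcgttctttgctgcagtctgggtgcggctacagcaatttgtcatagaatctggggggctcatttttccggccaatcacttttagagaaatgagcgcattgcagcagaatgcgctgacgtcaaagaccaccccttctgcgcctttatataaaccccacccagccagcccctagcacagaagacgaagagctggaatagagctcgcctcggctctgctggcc
Plagl1, Nnat and Meg3 carry 1 match each and Mest carries 2 in the window shown, while the Dlk1 window carries none. Windows not shown, at another start of Mest (30733256) and of Meg3 (109545148), carry none. The Plagl1 window has 26 CG dinucleotides and the Dlk1 window 9.

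The arrays were alike in quality. Between 62.8% and 67.2% of spots were well above background, and arrays correlated across features at 0.995 to 0.997 within a group and at 0.973 to 0.983 between groups. Each group had its own slide and scan, and an effect of the slide cannot be told apart from one of the treatment. All 8 markers of ES cells tested were well above background on all 9 arrays. Their summed linear level was 536 to 554 times the 75th percentile in DMSO, 524 to 549 in CHIR99021 and 536 to 582 in AICAR. This sum is carried by its brightest gene, Dppa5a, which did not pass by limma with CHIR99021 (-0.08, adjusted p = 0.34) or AICAR (0.05, adjusted p = 0.5). Single markers moved, with 3 higher and 2 lower with CHIR99021 and 4 higher and 2 lower with AICAR. Over all features 30.4% were higher and 20.5% lower with CHIR99021, and 30.9% and 29.6% with AICAR. Dppa5a, Utf1, Tdgf1 and Esrrb were named after their values were seen. Utf1 was at -1.22 (SE 0.06, adjusted p = 3.02e-06) and -1.16 (SE 0.06, adjusted p = 2.46e-06), Tdgf1 at -0.60 (SE 0.06, adjusted p = 9.63e-05) and 0.39 (SE 0.06, adjusted p = 0.000664), and Esrrb at 0.73 (SE 0.05, adjusted p = 1.67e-05) and 0.44 (SE 0.05, adjusted p = 0.000164), with CHIR99021 first.

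With CHIR99021 more of the imprinted genes fell than rose. Of the 39 genes tested by limma against DMSO, 19 fell, 5 rose and 15 did not pass an adjusted p of 0.05. The largest fitted changes were a rise of Plagl1, which encodes a zinc finger transcription factor, and falls of Nap1l5, Mirg and Meg3. Nap1l5 passed the filter, which kept probes well above background on enough arrays, only through the DMSO arrays. It was highest there, so its call and rank are not independent of the filter. With normexp background correction its log2 fold change was -0.27, and its second probe did not pass, at -0.54 (adjusted p = 0.26) in the limma fit of single probes. Over all 26866 features 51.0% were called, 30.4% higher and 20.5% lower, so the members' 19 of 39 falls stand beside a background of 20.5% and their 5 rises beside 30.4%. The median log2 fold change was -0.30 over the members and 0.07 over all features.

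With AICAR, too, more of them fell than rose. Against DMSO 21 members fell, 8 rose and 10 did not pass. Both treatments are set against the same 3 DMSO arrays, so their results are not independent of each other. The background was 60.5% called, 30.9% higher and 29.6% lower, and the median log2 fold change was -0.19 over the members and 0.03 over all features. The largest fitted falls were those of Dcn, Mirg, Mest, Nap1l5 and Dlk1, and the largest rises those of Kcnq1, Slc22a18 and Rasgrf1. Dcn and Nap1l5 passed the filter of at least 3 of 9 arrays above background only through the DMSO arrays. Kcnq1 and Rasgrf1 passed it only through the AICAR arrays. Each was highest in that group, so the filter favoured such changes and their calls and ranks are not independent of it. Scaling to the arrays' spike-in probes moved the median of all features from 0.03 to 0.19, and the split of all calls from 8310 higher and 7942 lower to 9902 and 4158. Scaling to the array median gave 6573 higher and 9515 lower. Under the spike-in scaling the members still had 17 lower calls and 9 higher, with a median of -0.03.

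Set directly against each other, the treatments differed at 23 of the 39 genes. With CHIR99021 13 were higher than with AICAR and 10 were lower, beside a background of 60.8% called, 36.2% higher and 24.6% lower. Plagl1, Zfp57, Asb4 and Impact were each more than 1 log2 unit higher with CHIR99021, and Dcn was at least 1.54-fold higher. Kcnq1, Rasgrf1, Slc22a18, H19 and Peg3 were each more than 1 log2 unit lower, of which Kcnq1 and Rasgrf1 passed the filter only through the AICAR arrays. Spike-in scaling turned the split of all calls from 9722 higher and 6606 lower to 4154 and 8107, and moved the median of all features from 0.10 to -0.10. The members' split was then 9 higher and 14 lower.

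**Figure D1:**
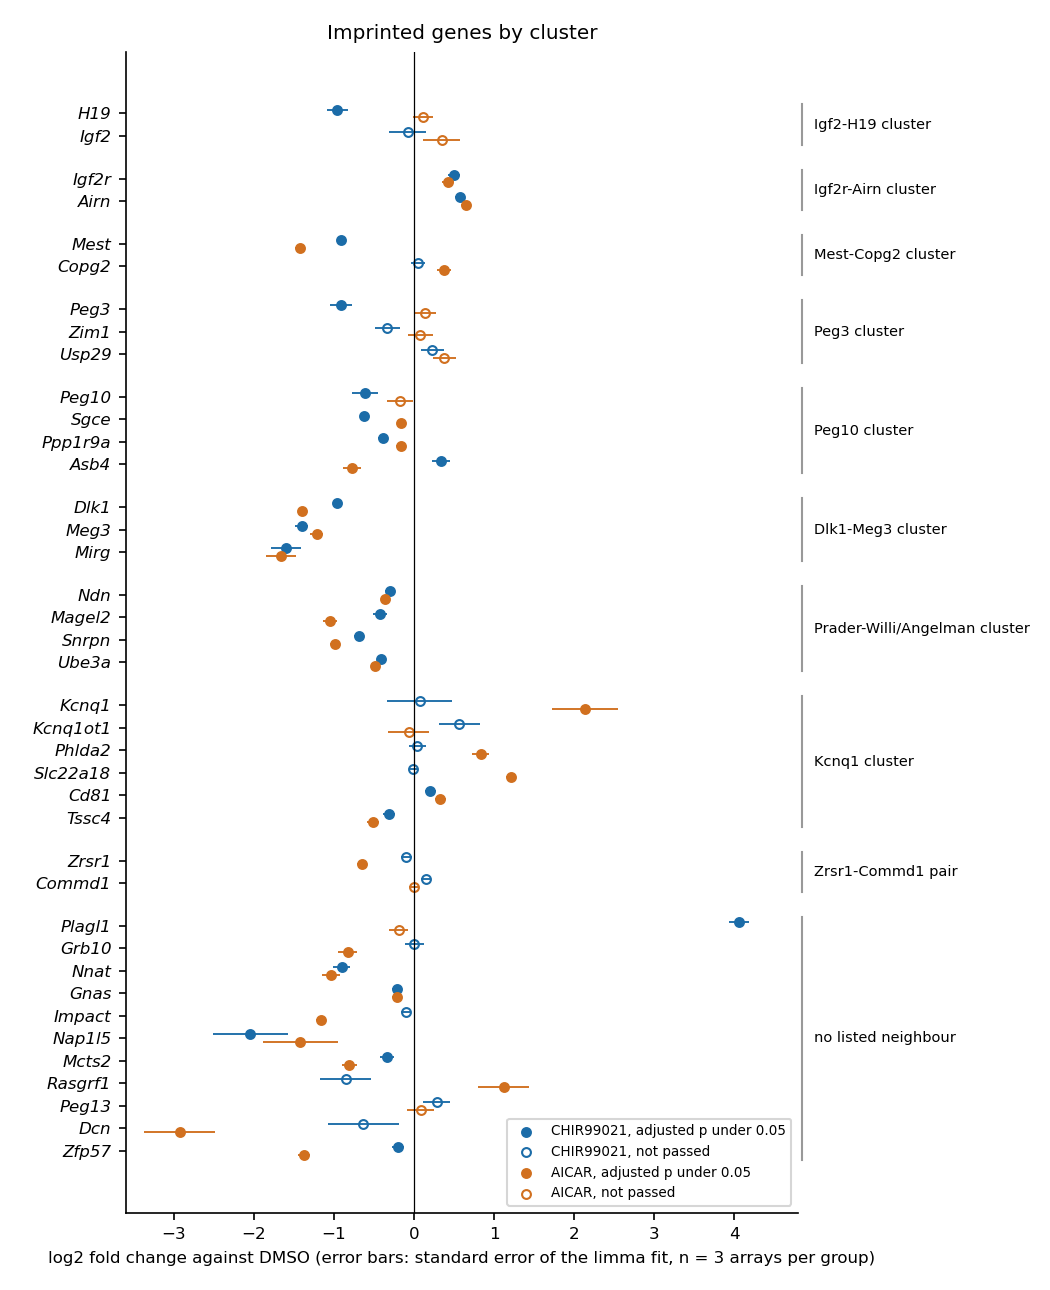
Log2 fold change against DMSO of the 39 tested imprinted genes, grouped by cluster, for CHIR99021 (blue) and AICAR (orange). Filled points passed an adjusted p of 0.05, open points did not, and bars are standard errors of the limma fit with 3 arrays per group. Plagl1 stands alone at 4.06 with CHIR99021, and the 3 genes of the Dlk1-Meg3 cluster lie between -0.96 and -1.66 with both compounds.

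Genes that rose and genes that fell were found in both classes of expressed parental copy. With CHIR99021, 6 of 16 maternally expressed genes fell and 3 rose, with a median log2 fold change of -0.16, while among the 20 paternally expressed genes 11 fell, 2 rose and the median was -0.38. With AICAR, the 16 maternally expressed genes had 7 falls, 6 rises and a median of 0.04, and the 20 paternally expressed ones 11 falls, 2 rises and a median of -0.28. The ranges of both classes overlapped widely, from -1.60 to 0.50 for maternal and -2.04 to 4.06 for paternal genes with CHIR99021. Over all features 20.5% were lower and 30.4% higher with CHIR99021, and 29.6% and 30.9% with AICAR. Whether the classes differ was not tested. Of the genes classed here as varying in their expressed copy, Gnas fell slightly with both compounds and Grb10 with AICAR.

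**Figure D2:**
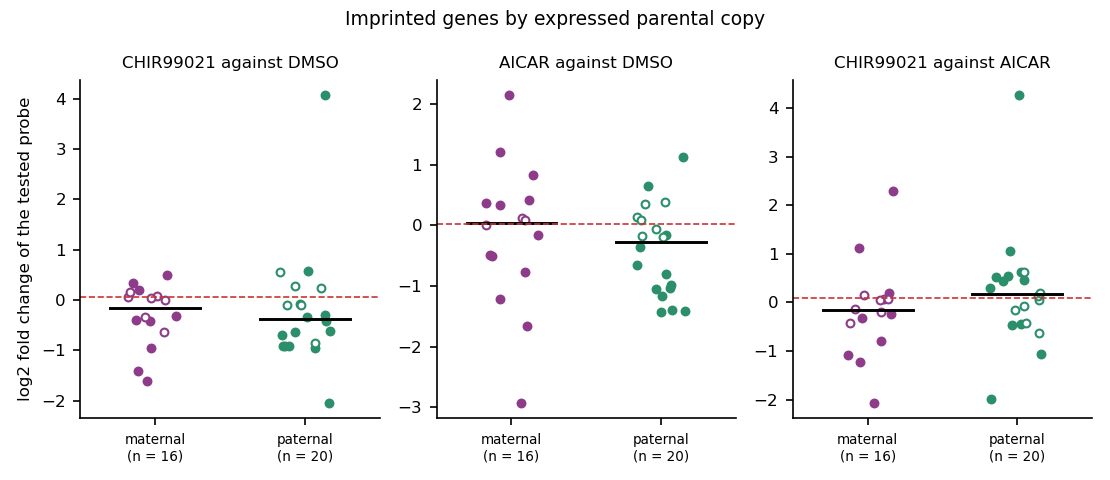
Log2 fold change of each tested imprinted gene by the parental copy usually expressed, in each comparison, with 16 maternally and 20 paternally expressed genes and a separate vertical scale per panel. Filled points passed an adjusted p of 0.05, black bars are medians of the class and the red dashed line is the median of all 26866 features. Against DMSO the paternal medians lie at -0.38 and -0.28 and the maternal ones at -0.16 and 0.04, with overlapping ranges.

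All 3 listed genes of the Dlk1-Meg3 cluster that could be tested, Dlk1, Meg3 and Mirg, fell with both compounds. Over all features 20.5% fell with CHIR99021 and 29.6% with AICAR, and both are set against the same DMSO arrays. Meg3 is a maternally expressed long noncoding RNA, Mirg a maternally expressed host transcript of many microRNAs, and Dlk1 encodes a paternally expressed transmembrane protein of the Notch ligand family. The level of Meg3 was 5.17, 5.16 and 5.18 on the DMSO arrays, 3.67, 3.83 and 3.78 with CHIR99021 and 4.11, 3.89 and 3.84 with AICAR. Every treated array was below every DMSO array by more than 1 log2 unit. By limma its log2 fold change was -1.41 (SE 0.08, adjusted p = 4.62e-06) with CHIR99021 and -1.22 (SE 0.08, adjusted p = 6.16e-06) with AICAR. The other 2 Meg3 probes fell as well, at -1.20 and -1.23 with CHIR99021 and at -0.92 and -0.98 with AICAR. Mirg read 3.21, 2.79 and 2.79 in DMSO, 1.16, 1.68 and 1.16 with CHIR99021 and 1.49, 1.05 and 1.28 with AICAR. Its treated groups overlapped each other and neither overlapped DMSO. Its log2 fold change was -1.60 (SE 0.19, adjusted p = 0.000246) and -1.66 (SE 0.19, adjusted p = 0.000131), in the same order.

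Dlk1, which uses the opposite parental copy from Meg3 and Mirg, fell alongside them. It read -0.25, -0.29 and -0.33 in DMSO, -1.25, -1.28 and -1.22 with CHIR99021 and -1.69, -1.65 and -1.74 with AICAR, so the 3 groups did not overlap. Its log2 fold change was -0.96 (SE 0.05, adjusted p = 2.44e-06) with CHIR99021 and -1.40 (SE 0.05, adjusted p = 3.44e-07) with AICAR. Dlk1 was higher with CHIR99021 than with AICAR, by 0.44 (SE 0.05, adjusted p = 8.14e-05), and this difference did not pass under spike-in scaling (0.24, adjusted p = 0.0631). Meg3 and Mirg did not pass between the treatments, at -0.19 (SE 0.08, adjusted p = 0.068) and 0.06 (SE 0.19, adjusted p = 0.803), but Meg3 did in 6 of 21 alternatives. These were normexp (-0.27, adjusted p = 0.00358), quantile normalization (-0.41, 0.00175), the deposited matrix values (-0.41, 0.00202), spike-in scaling (-0.39, 0.0373), the mean of its probes (-0.24, 0.00203) and the omission of AICAR replicate 3 (-0.24, 0.036). Dio3, a deiodinase gene of the same domain that is outside the list of 40 and was named after its values were seen, did not pass, at -0.02 (SE 0.26, adjusted p = 0.95) and 0.48 (SE 0.26, adjusted p = 0.147). The second Dlk1 probe fell as well, at -0.83 with CHIR99021 and -1.61 with AICAR. Between the treatments the other Meg3 probes were at -0.28 (adjusted p = 0.021) and -0.25 (adjusted p = 0.11) in the limma fit of single probes.

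**Figure D3:**
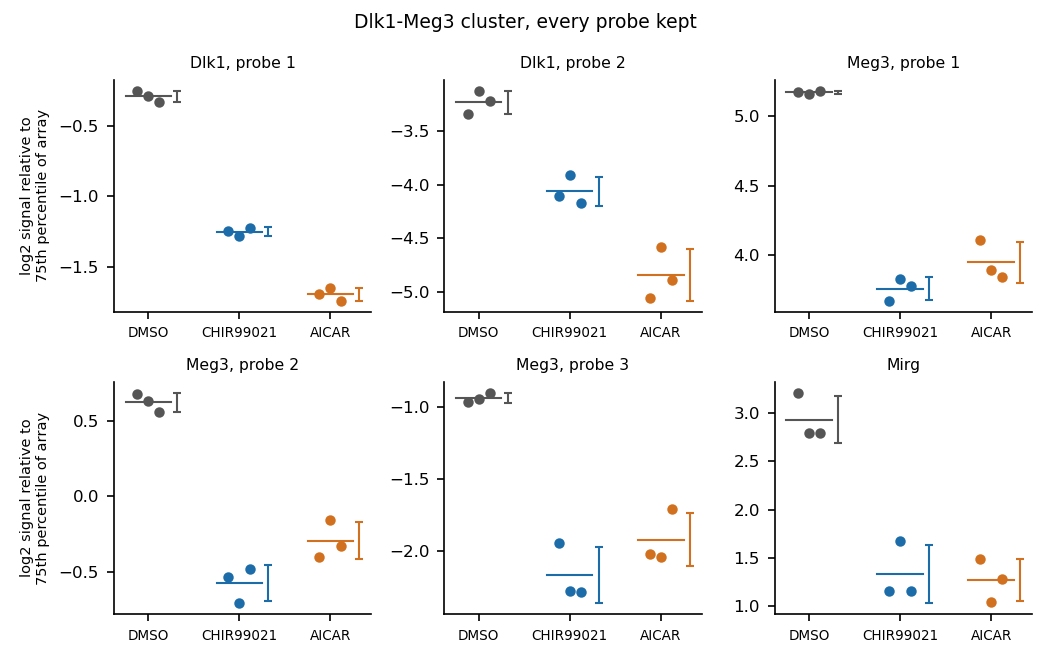
Level of every kept probe of Dlk1, Meg3 and Mirg on each array, as log2 signal relative to the array's 75th percentile, with a separate vertical scale per panel. Points are arrays, horizontal bars are means and vertical bars are SD of 3 arrays. In all 6 panels the DMSO arrays lie above every treated array.

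Plagl1 had the largest change of any member. Its product, also called ZAC1, is a zinc finger transcription factor that acts on growth and on other imprinted genes. Its tested probe read -0.34, -0.35 and -0.25 in DMSO, 3.46, 3.84 and 3.96 with CHIR99021 and -0.46, -0.43 and -0.63 with AICAR. The CHIR99021 arrays stood more than 3 log2 units above all others. The log2 fold change was 4.06 (SE 0.12, adjusted p = 2.64e-07) with CHIR99021, a 16.7-fold rise, -0.19 (SE 0.12, adjusted p = 0.208) with AICAR, and 4.26 (SE 0.12, adjusted p = 1.38e-07) between the treatments. The 4 probes did not agree in size, and their mean rose by 2.29 against DMSO and 2.36 against AICAR. A second probe rose by 4.18, a dimmer one by 0.78 (adjusted p = 0.00047), and at the last the change of 0.13 did not pass (adjusted p = 0.60). The transcripts or exons that each probe reads were not analysed here.

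**Figure D4:**
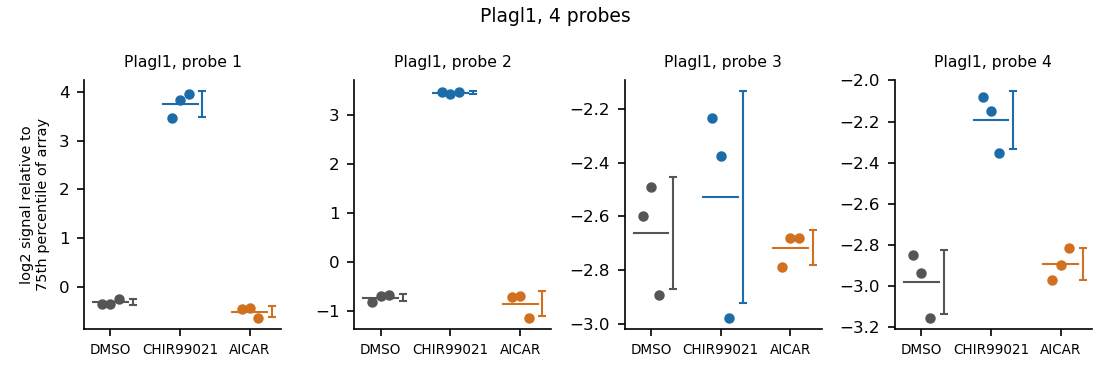
Level of the 4 Plagl1 probes on each array, as log2 signal relative to the array's 75th percentile, with a separate vertical scale per panel. Points are arrays, horizontal bars means and vertical bars SD of 3 arrays. Probes 1 and 2 rise by 4.06 and 4.18 with CHIR99021, probe 4 by 0.78, and the groups overlap at probe 3.

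At the Igf2-H19 cluster, H19, a maternally expressed noncoding RNA abundant in embryonic tissues, fell with CHIR99021. It read -1.17, -1.23 and -1.42 in DMSO, -2.35, -2.31 and -2.03 with CHIR99021 and -1.05, -1.04 and -1.39 with AICAR. The CHIR99021 arrays lay below all others, and those of DMSO and AICAR overlapped. Log2 fold changes of H19 were -0.96 (SE 0.13, adjusted p = 0.000489) with CHIR99021, 0.11 (SE 0.13, adjusted p = 0.473) with AICAR and -1.07 (SE 0.13, adjusted p = 0.000162) between the treatments. All 5 probes fell with CHIR99021, at -0.82 to -0.99. Igf2, the fetal growth factor read from the paternal copy of the same cluster, was near the limit of detection, well above background on 2 DMSO arrays, no CHIR99021 array and 3 AICAR arrays, and did not pass in any comparison.

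At the Igf2r-Airn cluster both genes rose with both compounds. Over all features 30.4% rose with CHIR99021 and 30.9% with AICAR. Igf2r, the maternally expressed receptor that clears IGF2, read 2.29, 2.29 and 2.37 in DMSO, 2.71, 2.94 and 2.80 with CHIR99021 and 2.86, 2.72 and 2.64 with AICAR. Airn, the paternally expressed noncoding RNA that overlaps it on the opposite strand and silences it in cis, read -0.96, -0.98 and -1.02, -0.36, -0.41 and -0.46 and -0.36, -0.44 and -0.23. In each gene all treated arrays lay above all DMSO arrays, and the treatments overlapped. The log2 fold changes of Igf2r were 0.50 (SE 0.08, adjusted p = 0.00109) with CHIR99021 and 0.42 (SE 0.08, adjusted p = 0.00199) with AICAR, and those of Airn were 0.58 (SE 0.06, adjusted p = 0.000166) and 0.65 (SE 0.06, adjusted p = 5.83e-05). Neither gene passed between the treatments. A second Airn probe was not well above background on any of the 9 arrays.

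Mest, which encodes a paternally expressed hydrolase-like protein linked to fetal growth, fell with both compounds. It read 3.78, 3.73 and 3.67 in DMSO, 2.82, 2.83 and 2.80 with CHIR99021 and 2.24, 2.27 and 2.38 with AICAR, in 3 separate ranges. Its log2 fold change was -0.91 (SE 0.05, adjusted p = 6.15e-06) with CHIR99021 and -1.43 (SE 0.05, adjusted p = 4.88e-07) with AICAR, and the level with CHIR99021 was higher than with AICAR by 0.52 (SE 0.05, adjusted p = 6.53e-05). The other 2 probes fell as well, at -1.12 and -1.31 with CHIR99021 and at -1.50 and -1.73 with AICAR. Its neighbour Copg2, a coat protein subunit of transport vesicles, rose with AICAR, at 0.37 (SE 0.09, adjusted p = 0.00661), and did not pass with CHIR99021, at 0.05 (SE 0.09, adjusted p = 0.643). Its second probe rose with both, at 0.22 (adjusted p = 0.04) with CHIR99021 and 0.56 (adjusted p = 0.00037) with AICAR.

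Among the paternally expressed genes of the Peg3 and Peg10 clusters, several falls were seen with CHIR99021. Peg3, a zinc finger protein, read -0.94, -1.09 and -1.02 in DMSO, -2.04, -1.97 and -1.78 with CHIR99021 and -1.09, -0.99 and -0.56 with AICAR. The CHIR99021 arrays were below all others, with a log2 fold change of -0.92 (SE 0.14, adjusted p = 0.000913) against DMSO and -1.05 (SE 0.14, adjusted p = 0.000279) against AICAR, while AICAR against DMSO was 0.13 (SE 0.14, adjusted p = 0.429). The second Peg3 probe fell with CHIR99021 as well, at -1.23. Zim1 and Usp29, its neighbours, did not pass in any comparison, and Zim1 was not well above background on any CHIR99021 array. Leaving out 1 array brought calls for Zim1 without DMSO replicate 2 (CHIR99021 against DMSO -0.49, adjusted p = 0.0223; against AICAR -0.41, 0.0205) or AICAR replicate 2 (against AICAR -0.53, 0.0276). It brought calls for Usp29 without CHIR99021 replicate 2 (0.40, adjusted p = 0.0146, with CHIR99021; 0.38, 0.00786, with AICAR) or 3 (0.38, 0.0297, with AICAR). Peg10, a protein derived from a retrotransposon and needed for the placenta, fell with CHIR99021, at -0.61 (SE 0.16, adjusted p = 0.0148), and did not pass with AICAR, at -0.17 (SE 0.16, adjusted p = 0.392). Its call against AICAR, at -0.44 (SE 0.16, adjusted p = 0.0454), was lost in 15 of 21 alternatives, among them each omission of 1 array other than AICAR replicate 3, at adjusted p of 0.0601 to 0.131.

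Sgce, the paternally expressed sarcoglycan next to Peg10, read 0.12, 0.07 and 0.02 in DMSO, -0.53, -0.61 and -0.54 with CHIR99021 and -0.08, -0.15 and -0.07 with AICAR, in 3 separate ranges. Its log2 fold change was -0.63 (SE 0.05, adjusted p = 2.58e-05) with CHIR99021 and -0.17 (SE 0.05, adjusted p = 0.0166) with AICAR. The AICAR call was lost without DMSO replicate 1 (-0.14, adjusted p = 0.0603), without AICAR replicate 2 (-0.14, adjusted p = 0.0516) and under spike-in scaling (adjusted p = 0.996). Ppp1r9a, a regulator of the actin cytoskeleton, fell with CHIR99021, at -0.39 (SE 0.05, adjusted p = 0.000602), and its second probe at -0.43. With AICAR its 2 probes went opposite ways, at -0.16 (SE 0.05, adjusted p = 0.0302) and 0.47 (adjusted p = 0.011). The AICAR call at the brighter probe was lost without DMSO replicate 1 (-0.12, adjusted p = 0.101) or 2 (-0.17, 0.0637), or AICAR replicate 2 (-0.15, 0.0781) or 3 (-0.15, 0.0764).

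Asb4, a maternally expressed ubiquitin ligase subunit of the same cluster, differed between the compounds. It read -2.81, -3.19 and -2.76 in DMSO, -2.62, -2.61 and -2.53 with CHIR99021 and -3.77, -3.74 and -3.59 with AICAR, with no overlap between groups. Asb4 changed by 0.34 (SE 0.11, adjusted p = 0.0363) with CHIR99021, -0.78 (SE 0.11, adjusted p = 0.000531) with AICAR and 1.11 (SE 0.11, adjusted p = 6.23e-05) between them. The CHIR99021 call was lost in 11 of 21 alternatives, 5 of them leaving out 1 array: without DMSO replicate 2 (0.20, adjusted p = 0.0554), CHIR99021 replicate 1 (0.35, 0.0703), 2 (0.35, 0.0711) or 3 (0.31, 0.0971), or AICAR replicate 2 (0.34, 0.0508). The second Asb4 probe did not pass in any comparison, at 0.39 with CHIR99021 and 0.30 with AICAR.

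All 4 genes of the Prader-Willi/Angelman cluster fell with both compounds. Over all features 20.5% fell with CHIR99021 and 29.6% with AICAR, and both are set against the same DMSO arrays. Snrpn, which encodes a paternally expressed splicing factor protein, read 2.94, 2.78 and 2.86 in DMSO, 2.14, 2.20 and 2.17 with CHIR99021 and 1.82, 1.81 and 1.99 with AICAR. All treated arrays were below all DMSO arrays, and the AICAR arrays below the CHIR99021 arrays. Its log2 fold change was -0.69 (SE 0.07, adjusted p = 8.55e-05) and -0.99 (SE 0.07, adjusted p = 7.85e-06), and the difference between the treatments, 0.30 (SE 0.07, adjusted p = 0.00468), was lost with spike-in scaling (0.09, adjusted p = 0.525), quantile normalization (0.15, 0.115) and the deposited matrix values (0.15, 0.0966). The other Snrpn probes fell with both compounds too. Between the treatments they were at 0.24 (adjusted p = 0.034) and 0.0033 (adjusted p = 0.98) in the limma fit of single probes. Magel2, which acts in ubiquitin-dependent protein sorting, changed by -0.42 (SE 0.09, adjusted p = 0.00497) and -1.05 (SE 0.09, adjusted p = 2.71e-05). Ndn, a growth suppressor, and Ube3a, a ubiquitin ligase with maternal expression in neurons, had smaller falls, Ndn at -0.30 (SE 0.05, adjusted p = 0.00243) and -0.36 (SE 0.05, adjusted p = 0.000719), and Ube3a at -0.42 (SE 0.05, adjusted p = 0.000182) and -0.48 (SE 0.05, adjusted p = 5.1e-05). The AICAR call of Ndn did not pass under spike-in scaling, at -0.19 (adjusted p = 0.174).

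In the Kcnq1 cluster 4 of the 6 tested genes rose with AICAR and 1 fell, and with CHIR99021 1 rose and 1 fell. Over all features 30.9% rose and 29.6% fell with AICAR, and 30.4% and 20.5% with CHIR99021. Kcnq1, among the rises with AICAR, passed the filter only through the AICAR arrays. The rise with CHIR99021 is that of Cd81, a call lost in many alternatives, as given below. Slc22a18, a maternally expressed transporter, read 0.67, 0.70 and 0.77 in DMSO, 0.68, 0.74 and 0.69 with CHIR99021 and 2.02, 1.84 and 1.93 with AICAR. Phlda2, a maternally expressed inhibitor of placental growth, read 0.20, 0.10 and -0.02, 0.07, 0.19 and 0.16 and 1.03, 0.70 and 1.06. For both, every AICAR array lay above every other array, and DMSO and CHIR99021 overlapped. The log2 fold change with AICAR was 1.21 (SE 0.06, adjusted p = 1.54e-06) for Slc22a18 and 0.83 (SE 0.10, adjusted p = 0.000235) for Phlda2, and with CHIR99021 it was -0.01 (SE 0.06, adjusted p = 0.918) and 0.04 (SE 0.10, adjusted p = 0.765). CHIR99021 was lower than AICAR in both, at -1.22 (SE 0.06, adjusted p = 1.28e-06) and -0.79 (SE 0.10, adjusted p = 0.000285).

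Kcnq1, a potassium channel subunit that shares its locus with these genes, was well above background on all 3 AICAR arrays, 1 DMSO array and no CHIR99021 array. It read -5.51, -7.31 and -6.25 in DMSO, -6.40, -6.58 and -5.87 with CHIR99021 and -4.09, -4.23 and -4.32 with AICAR, so only the AICAR arrays stood apart. The fitted difference of AICAR over DMSO was 2.14 (SE 0.41, adjusted p = 0.00232), and it fell to 0.50 with normexp background correction, whose offset of 50 draws dim signals together. In the processed signal CHIR99021 was at least 3.68-fold lower than AICAR, a bound in which a probe's own signal or the lowest signal measured above background, whichever is higher, stands for the dim group. Cd81, a tetraspanin of the cell surface, rose slightly with AICAR, at 0.33 (SE 0.07, adjusted p = 0.00361). Its CHIR99021 call, 0.20 (SE 0.07, adjusted p = 0.0378), was lost in 13 of 21 alternatives: without DMSO replicate 2 (0.14, adjusted p = 0.11) or 3 (0.22, 0.066), CHIR99021 replicate 2 (0.19, 0.0989) or 3 (0.18, 0.11), AICAR replicate 2 (0.20, 0.0527) or 3 (0.20, 0.0509), and in 7 others. Tssc4 fell with both compounds, at -0.31 (SE 0.07, adjusted p = 0.00784) with CHIR99021 and -0.51 (SE 0.07, adjusted p = 0.000475) with AICAR. Its call between the treatments, 0.20 (SE 0.07, adjusted p = 0.0449), was lost in 12 of 21 alternatives, among them each omission of 1 array other than DMSO replicate 1 or AICAR replicate 1, at adjusted p of 0.0573 to 0.126.

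Kcnq1ot1, the paternally expressed noncoding RNA of this cluster, did not pass at its tested probe, with log2 fold changes of 0.57 (SE 0.26, adjusted p = 0.102) and -0.07 (SE 0.26, adjusted p = 0.836). Without CHIR99021 replicate 3 it passed against DMSO (0.76, adjusted p = 0.0478) and against AICAR (0.83, 0.0286), and against AICAR also without AICAR replicate 3 (0.83, 0.0301). A second probe matched by accession changed by 0.35 (adjusted p = 0.045) with CHIR99021 and -1.05 (adjusted p = 0.00017) with AICAR. A brighter probe named KCNQ1ot1 in the file, without a matched accession, read 1.86, 1.89 and 1.86 in DMSO, 2.61, 2.61 and 2.58 with CHIR99021 and 1.97, 2.06 and 2.10 with AICAR. At that probe both compounds gave higher levels than DMSO, by 0.73 (adjusted p = 0.000017) and 0.17 (adjusted p = 0.01765) in the fit of single probes. Another probe of that name, also above background on all 9 arrays, rose with both, by 1.04 (adjusted p = 0.0089) and 0.94 (adjusted p = 0.011). With CHIR99021 all 4 probes above background on every array were thus higher than in DMSO, 3 of them past the threshold in that fit. With AICAR the probes went opposite ways, and no direction is given.

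**Figure D5:**
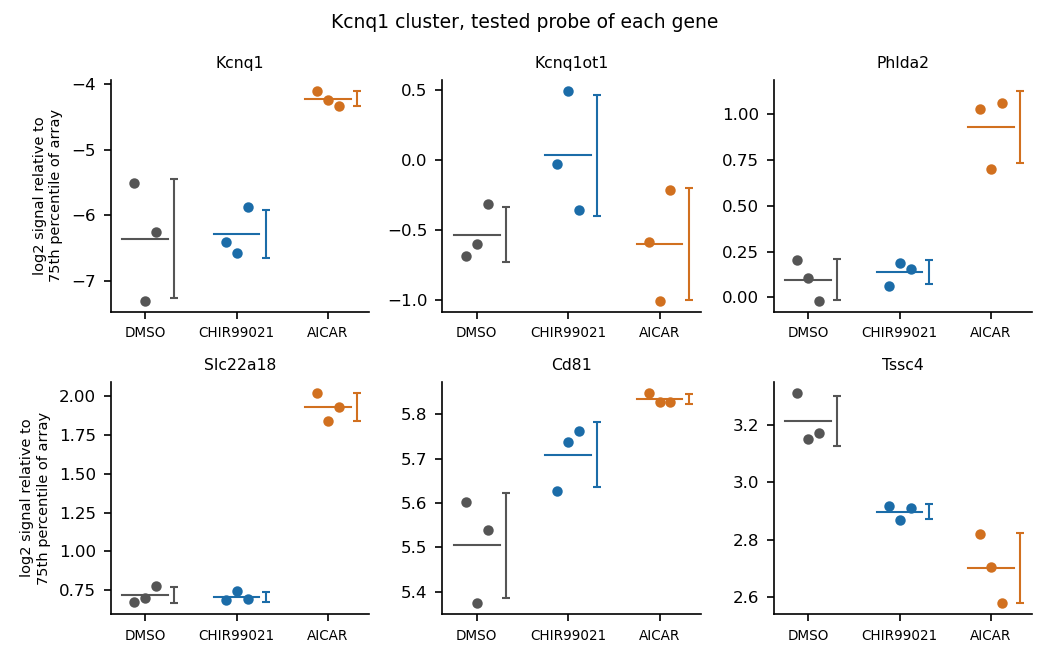
Level of the tested probe of 6 genes of the Kcnq1 cluster on each array, as log2 signal relative to the array's 75th percentile, with a separate vertical scale per panel. Points are arrays, horizontal bars means and vertical bars SD of 3 arrays. For Kcnq1, Phlda2 and Slc22a18 the AICAR arrays lie above all others, while for Tssc4 both treated groups lie below DMSO.

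Impact and Grb10, without a listed neighbour, and Zrsr1, paired with Commd1, changed with AICAR and not detectably with CHIR99021 at the tested probe. Impact, a paternally expressed inhibitor of the translation regulator GCN2, read 4.68, 4.58 and 4.62 in DMSO, 4.53, 4.44 and 4.59 with CHIR99021 and 3.39, 3.54 and 3.48 with AICAR. Grb10, an adaptor that restrains insulin signalling, read -1.07, -1.18 and -0.997, -1.16, -0.92 and -1.15 and -1.69, -1.91 and -2.13. In both genes the AICAR arrays were below all others. The log2 fold change with AICAR was -1.16 (SE 0.06, adjusted p = 2.3e-06) for Impact and -0.83 (SE 0.12, adjusted p = 0.000473) for Grb10, and with CHIR99021 -0.10 (SE 0.06, adjusted p = 0.188) and 0.0029 (SE 0.12, adjusted p = 0.986). The difference between the treatments was 1.05 (SE 0.06, adjusted p = 3.06e-06) for Impact and 0.83 (SE 0.12, adjusted p = 0.000428) for Grb10. The second, dimmer Impact probe rose with CHIR99021, at 0.35 (adjusted p = 0.024), and fell with AICAR, at -0.29 (adjusted p = 0.038). Zrsr1, a splicing factor gene that arose by retrotransposition within Commd1, fell with AICAR, at -0.65 (SE 0.07, adjusted p = 7.66e-05), and not detectably with CHIR99021, at -0.10 (SE 0.07, adjusted p = 0.265). Commd1, a regulator of copper handling, did not pass with either compound, but did with CHIR99021 when DMSO replicate 2 was left out (0.19, adjusted p = 0.0491) and with normexp (0.18, 0.047).

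Nnat and Mcts2 fell with both compounds. Nnat, a small membrane protein gene of developing brain, read -0.93, -1.20 and -1.22 in DMSO, -2.18, -2.00 and -1.89 with CHIR99021 and -2.03, -2.14 and -2.30 with AICAR. All treated arrays were below all DMSO arrays, with log2 fold changes of -0.91 (SE 0.11, adjusted p = 0.000326) and -1.04 (SE 0.11, adjusted p = 9.95e-05). Mcts2, a retrogene copy of Mcts1 whose probe may also read that gene, changed by -0.34 (SE 0.09, adjusted p = 0.0148) and -0.81 (SE 0.09, adjusted p = 0.000126), and its CHIR99021 call was lost without DMSO replicate 3 (-0.31, adjusted p = 0.0509). Gnas, which encodes the stimulatory G protein subunit and overlapping transcripts, changed by only -0.22 (SE 0.05, adjusted p = 0.0102) and -0.22 (SE 0.05, adjusted p = 0.00815). Under spike-in scaling Gnas passed in neither comparison, at -0.25 (adjusted p = 0.124) and -0.05 (adjusted p = 0.754). Its AICAR call was also lost under quantile normalization (-0.02, adjusted p = 0.79) and with the deposited matrix values (-0.02, 0.761). Both of these brought a call between the treatments, at -0.24 (adjusted p = 0.00443) and -0.23 (0.00493). A second probe, above background on all DMSO arrays and 1 array of each treatment, was at -0.80 (adjusted p = 0.11) and -1.06 (adjusted p = 0.039).

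The dimmest members gave less certain values. Nap1l5, a histone chaperone-like gene within an intron of Herc3, was well above background on all DMSO arrays and on 1 array of each treatment, and changed by -2.04 (SE 0.46, adjusted p = 0.00722) with CHIR99021 and -1.42 (SE 0.46, adjusted p = 0.0288) with AICAR. Its AICAR call was lost without DMSO replicate 2 (-1.34, adjusted p = 0.0768) or 3 (-1.35, 0.0756), or AICAR replicate 1 (-1.41, 0.0692) or 3 (-1.30, 0.0824), and its second probe did not pass. Its CHIR99021 value was -1.46 without CHIR99021 replicate 2 and -1.29 as the mean of its probes. Nap1l5 passed the filter only through the DMSO arrays, where it was highest, so neither call is independent of the filter. Dcn, which encodes the matrix proteoglycan decorin, was well above background on all DMSO arrays, 1 CHIR99021 array and no AICAR array. It was at least 2.38-fold lower with AICAR than with DMSO. The limma call (adjusted p = 0.000698) belongs to the fitted change of -2.93 and not to this bound. Dcn passed the filter only through the DMSO arrays, where it was highest, so the call is not independent of the filter. With CHIR99021 Dcn did not pass, at -0.63 (SE 0.45, adjusted p = 0.273), except without CHIR99021 replicate 2 (-1.17, 0.0121). Rasgrf1, a Ras activator, was well above background on all AICAR arrays, 1 DMSO array and no CHIR99021 array. AICAR exceeded DMSO by 1.12 (SE 0.32, adjusted p = 0.0165), a call lost without DMSO replicate 1 (1.05, adjusted p = 0.0516) or 2 (1.04, 0.0517) or AICAR replicate 3 (1.05, 0.0521), and CHIR99021 was at least 2.70-fold lower than AICAR. CHIR99021 against DMSO did not pass for Rasgrf1 as reported, but did under array median scaling (-0.92, adjusted p = 0.0455), with the replicate block (-0.86, 0.0201) and without CHIR99021 replicate 3 (-1.23, 0.00316). With normexp the log2 fold changes against DMSO were -0.27 (CHIR99021) and -0.31 (AICAR) for Nap1l5, and with AICAR -0.39 for Dcn and 0.21 for Rasgrf1. They were still called. Between the treatments they were then -0.39 for Kcnq1, -0.20 for Rasgrf1 and 0.38 for Dcn, so the bounds hold for the processed signal only. Peg13 did not pass in any comparison.

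Zfp57, which guards the methylated copy of imprinting control regions, fell with AICAR. It read 2.25, 2.17 and 2.25 in DMSO, 1.98, 2.04 and 2.06 with CHIR99021 and 0.99, 0.72 and 0.84 with AICAR. The AICAR arrays were well below all others, with a log2 fold change of -1.38 (SE 0.07, adjusted p = 2.32e-06). The second probe fell with AICAR as well, at -0.51 (adjusted p = 0.0011). With CHIR99021 the probes went opposite ways, at -0.20 (SE 0.07, adjusted p = 0.0488) and 0.28 (adjusted p = 0.025). The call at the brighter probe was lost in 13 of 21 alternatives, among them each omission of 1 array other than AICAR replicate 1 or 2, at adjusted p of 0.0643 to 0.133, so no direction is given with CHIR99021.

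A list of 20 genes drawn up for the setting and keeping of imprints includes Zfp57 itself and also Tet2. With AICAR 16 of the 19 tested, Zfp57 included, were lower and 1 higher, against a background of 29.6% lower and 30.9% higher. With CHIR99021 9 were lower and 4 higher, against 20.5% and 30.4%. Dnmt3l, the cofactor of methylation in germ cells, fell with both, at -2.27 (SE 0.07, adjusted p = 4e-07) and -2.67 (SE 0.07, adjusted p = 1.77e-07). Trim28, the corepressor that ZFP57 recruits, fell with both, at -0.37 (SE 0.08, adjusted p = 0.00523) and -0.58 (SE 0.08, adjusted p = 0.00033). Dnmt1, the maintenance methyltransferase, fell slightly with both, at -0.19 (SE 0.06, adjusted p = 0.0227) and -0.21 (SE 0.06, adjusted p = 0.01). The genes of this list other than Zfp57 were not examined under the alternatives. Spike-in scaling moved the median of all features with AICAR from 0.03 to 0.19, so small falls such as that of Dnmt1 may depend on the scaling. Uhrf1, which brings DNMT1 to replicated DNA, did not pass with CHIR99021, at 0.01 (SE 0.06, adjusted p = 0.929), and fell with AICAR, at -0.47 (SE 0.06, adjusted p = 0.000154). Dppa3, which protects imprints after fertilisation, rose with CHIR99021 and fell with AICAR, at 0.31 (SE 0.08, adjusted p = 0.0107) and -1.57 (SE 0.08, adjusted p = 1.6e-06). Tet2, an enzyme that oxidises methylcytosine, rose with CHIR99021, at 0.38 (SE 0.07, adjusted p = 0.00241), and did not pass with AICAR, at 0.03 (SE 0.07, adjusted p = 0.702).

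Among 36 further imprinted genes outside the list of 40, 29 were tested. With CHIR99021 11 rose and 8 fell, and with AICAR 8 rose and 10 fell, beside 30.4% higher and 20.5% lower, and 30.9% and 29.6%, over all features. Their median log2 fold changes were -0.05 and 0.08. Cdkn1c, a maternally expressed inhibitor of the cell cycle in the Kcnq1 cluster, fell with both compounds, at -2.59 (SE 0.07, adjusted p = 1.24e-07) and -0.93 (SE 0.07, adjusted p = 1.1e-05). Calcr, the calcitonin receptor of the Peg10 cluster, fell with both, at -1.33 (SE 0.10, adjusted p = 2.03e-05) and -1.06 (SE 0.10, adjusted p = 4.23e-05). Pde10a, a cyclic nucleotide phosphodiesterase, rose with both, at 1.33 (SE 0.12, adjusted p = 6.78e-05) and 1.20 (SE 0.12, adjusted p = 7.44e-05), and Qpct, which makes pyroglutamate ends on peptides, at 0.69 (SE 0.05, adjusted p = 3.03e-05) and 1.66 (SE 0.05, adjusted p = 3.36e-07). Ddc, the decarboxylase next to Grb10, fell with both, at -0.26 (SE 0.08, adjusted p = 0.022) and -1.20 (SE 0.08, adjusted p = 6.04e-06). Ascl2, a transcription factor of the placenta that is also among the trophoblast markers below, rose with both, at 0.56 (SE 0.05, adjusted p = 5.47e-05) and 1.17 (SE 0.05, adjusted p = 8.38e-07).

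Markers of other cell types moved with the treatments. The summed level of primitive streak and mesoderm markers, with 8 of 10 tested, was 10.05 to 10.95 times the 75th percentile in DMSO, 24.37 to 26.39 with CHIR99021 and 12.96 to 14.89 with AICAR. For neural markers, with 8 of 8 tested, it was 6.36 to 6.49, 4.09 to 4.29 and 5.25 to 5.77. For trophoblast markers, with 7 of 11 tested, it was 12.2 to 12.9, 18.95 to 19.83 and 21.2 to 21.3, and Elf5, Hand1, Tpbpa and Plac1 did not pass the filter on dim probes. For fibroblast markers, with 8 of 12 tested, it was 3.39 to 3.49, 4.35 to 4.79 and 5.02 to 5.92, and Postn, Lum, Twist2 and Prrx1 did not pass it. For endoderm markers, with 9 of 10 tested, it was 0.933 to 0.996, 0.994 to 1.10 and 1.06 to 1.15. A sum is carried by its brightest genes, and single markers did not all follow it. With CHIR99021, 7 streak markers rose and 0 fell, neural 2 and 5, trophoblast 5 and 1, fibroblast 3 and 3, endoderm 3 and 3. With AICAR these were 5 and 1, 2 and 4, 6 and 1, 4 and 3, and 4 and 4. Over all features 30.4% rose and 20.5% fell with CHIR99021, and 30.9% and 29.6% with AICAR. The part of these markers' cell types in the changes of Plagl1, H19, Phlda2, Nnat and the other imprinted genes was not tested.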

How the data were processed

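The deposited scanner files give the intensity of each spot, linear, and were made per the file headers with Agilent Feature Extraction 10.7.3.1 (10.7 per the submitters' processing notes). A deposited matrix of the whole series gives log2 values that followed the log2 processed signal across probes at r of 0.99962 to 0.99998, with its centring not given in the sources used here. It served as an alternative.

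Levels were log2 processed signals with the 75th percentile of the array subtracted, without outlier spots (136 to 192 per array), with spots of a probe averaged. Probes well above background on at least 3 of 9 arrays were kept (37742 of 55681). Accessions were matched to RefSeq names of GRCm38.p6, used for names only, since the file headers name mm9. The brightest kept probe of each name was tested, giving 26866 features. Probes named KCNQ1ot1 in the file thus formed a feature apart from Kcnq1ot1. All 9 arrays were fitted with limma 3.58.1 in R 4.3.3 (package data.table, version 1.17.8), with Benjamini-Hochberg adjustment over all features. The steps were tested on simulated data.

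Members and lists were chosen with earlier results of these data known. All members are named. From 36 other imprinted genes up to 4 called genes with the largest change in each DMSO comparison are named, and Cdkn1c. Zfp57, Trim28, Dnmt1, Uhrf1, Dnmt3l, Dppa3 and Tet2 are named whatever their result. Normexp used the median signal, because the files give no mean signal. Replicate numbers do not pair the samples: deviations of same-numbered samples correlated at -0.0549 to 0.0877.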

Additional observations from a re-analysis of the deposited data

How the results depend on the processing

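Over 21 alternatives for the 39 genes and 3 comparisons, 2239 of the recomputed log2 fold changes kept their direction and their side of the threshold. Another 61 changed sign without being called in either fit, 92 lost a call with the direction kept, 41 gained one, and 6 changed sign with a call in at least 1 of the fits. The count of members higher with CHIR99021 than with DMSO, 5 in the fit reported, was 3 under quantile normalization, array median scaling, spike-in scaling, the deposited matrix values and the fit of only the 2 groups compared. Leaving out 1 array gave 3 to 5, with 3 without AICAR replicate 2. The other 5 counts stayed within 1.5 times the reported ones. With a replicate block the counts were 4 higher and 19 lower for CHIR99021 against DMSO, 8 and 21 for AICAR against DMSO, and 13 and 10 between the treatments; the replicate numbers do not pair the samples. The sign changed, with a call in at least 1 fit, for Zfp57 with CHIR99021 when probes were averaged (0.0395), for Ppp1r9a with AICAR under spike-in scaling (0.0031) and when probes were averaged (0.153), for Commd1 with AICAR under quantile normalization (0.186) and the deposited matrix values (0.182), and for Tssc4 between the treatments under spike-in scaling (-0.0087). For these the cause was not tested, except that averaging adds probes that go the other way. The slide as a block was not run, because each group lies on its own slide. Signal near background limits Igf2, Zim1, Kcnq1, Nap1l5, Rasgrf1 and Dcn.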
